A study of Homo sapiens with 6 samples.

Results

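The genes described here form the core machinery of macroautophagy and its cargo receptors, 36 genes taken by name for their role in the pathway. All 36 were found among the 58302 Ensembl genes counted in each library. They were measured by RNA sequencing in HL-60, a human promyelocytic leukaemia line that grows in suspension. The comparison was between 3 libraries of cells with an OSGEP hairpin (shRNA, genotype labelled as knockdown) and 3 libraries of cells with a control hairpin (labelled WT). OSGEP is the catalytic subunit of the KEOPS complex, which makes the t6A modification of tRNA, and the study asked what its loss does to proliferation, the cell cycle and apoptosis in acute myeloid leukaemia. The labels give no time after transduction, do not say whether more than 1 hairpin or clone was used, and do not state if each library is a culture of its own. The spread that the p-values rest on may therefore be technical.

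Macroautophagy wraps cytoplasm in a double membrane and delivers it to the lysosome. The ULK kinase complex starts the process, a class III PI3-kinase complex marks the membrane with phosphatidylinositol 3-phosphate, and WIPI, ATG2 and ATG9 proteins bring in lipid. Small ubiquitin-like proteins of the LC3 and GABARAP families are cut by ATG4 proteases and joined to phosphatidylethanolamine by ATG7, ATG3 and the ATG12-ATG5-ATG16L1 complex. Cargo receptors such as p62 (SQSTM1) then link ubiquitinated cargo to the lipid-bound LC3 and GABARAP proteins. Much of this control acts on proteins, which were not analysed here, so the values below describe transcripts and not autophagic flux.

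Total counts lay between 8326982 and 10157091 per library. Expression is given as CPM, the count scaled to library size with TMM normalisation, and a gene was called changed at an edgeR adjusted p under 0.05 over all 14018 genes tested. OSGEP itself was 49.1, 54.4 and 76.9 CPM in control libraries 1, 2 and 3 and 21.2, 23.1 and 20.9 CPM in knockdown libraries 1, 2 and 3, and every knockdown library lay below every control library (log2 fold change -1.47, SE 0.21). All 9 promyelocytic markers of HL-60 were detected, and their summed level was 3030 to 3194 CPM in control cells and 1199 to 1266 CPM in knockdown cells. Of this sum, PRTN3 made up 1244 and 450.5 CPM and MPO 954 and 286 CPM on average. PRTN3, MPO, ELANE, AZU1 and MYB were called lower. CTSG, CD33, SPI1 and CEBPE were not called, with log2 fold changes of -0.72, -0.03, -0.14 and 0.94. Markers of other cells were lower in sum, and NKG7 of the lymphoid list was the highest of them on average. The 8 erythroid markers summed to at most 8.29 CPM in any library, with HBG1 at 0 throughout. The 7 lymphoid markers summed to 84.8 to 99.3 CPM in control cells and 29.2 to 32.5 CPM in knockdown cells, of which NKG7 made up 86.1 and 23.3 CPM on average, while CD3D and CD3E stayed below 0.5 CPM on average in both groups. The 8 epithelial and mesenchymal markers summed to 23.4 to 31.0 CPM in control cells and 35.1 to 54.3 CPM in knockdown cells, of which KRT8 made up 8.31 and 19.1 CPM and CDH1 3.89 and 11.8 CPM on average. CDH1 was called higher (edgeR adjusted p = 0.0219), NKG7 was called lower (edgeR adjusted p = 2.085e-06) and EPCAM stayed below 1 CPM on average. The part of these shifts in the results below was not tested.

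Of the 36 autophagy genes, chosen with earlier results of these data known, 34 had enough reads to be tested. Of these, 5 rose in the knockdown, 0 fell and 29 were not called, against a background of 5.19% of all genes called higher and 5.56% called lower (6.13% and 4.37% when scaled by library size alone, with the same counts of 5 and 0). The 5 were GABARAPL1, ULK1, ATG9A, ATG16L1 and ATG4C, each from a different role group as set here. Of these, ATG4C, ATG16L1 and GABARAPL1 all belong to the cutting and lipid joining described above. At an unadjusted edgeR p under 0.05, 8 of the 34 lay higher and 0 lower, where 11% and 11.9% of all genes did so, and both DESeq2 (background 6.81% and 6.56%) and limma-voom (4.9% and 6.18%) called 5 higher and 0 lower. The log2 fold changes of the 34 ran from -0.77 to 2.15, with 22 above and 12 below 0. Their median was 0.24, beside 0.01 over all genes tested. In 6 of the 34 every knockdown library lay above every control library, and in 0 every one lay below, where 13.3% and 15.6% of all genes tested did so.

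**Figure D1:**
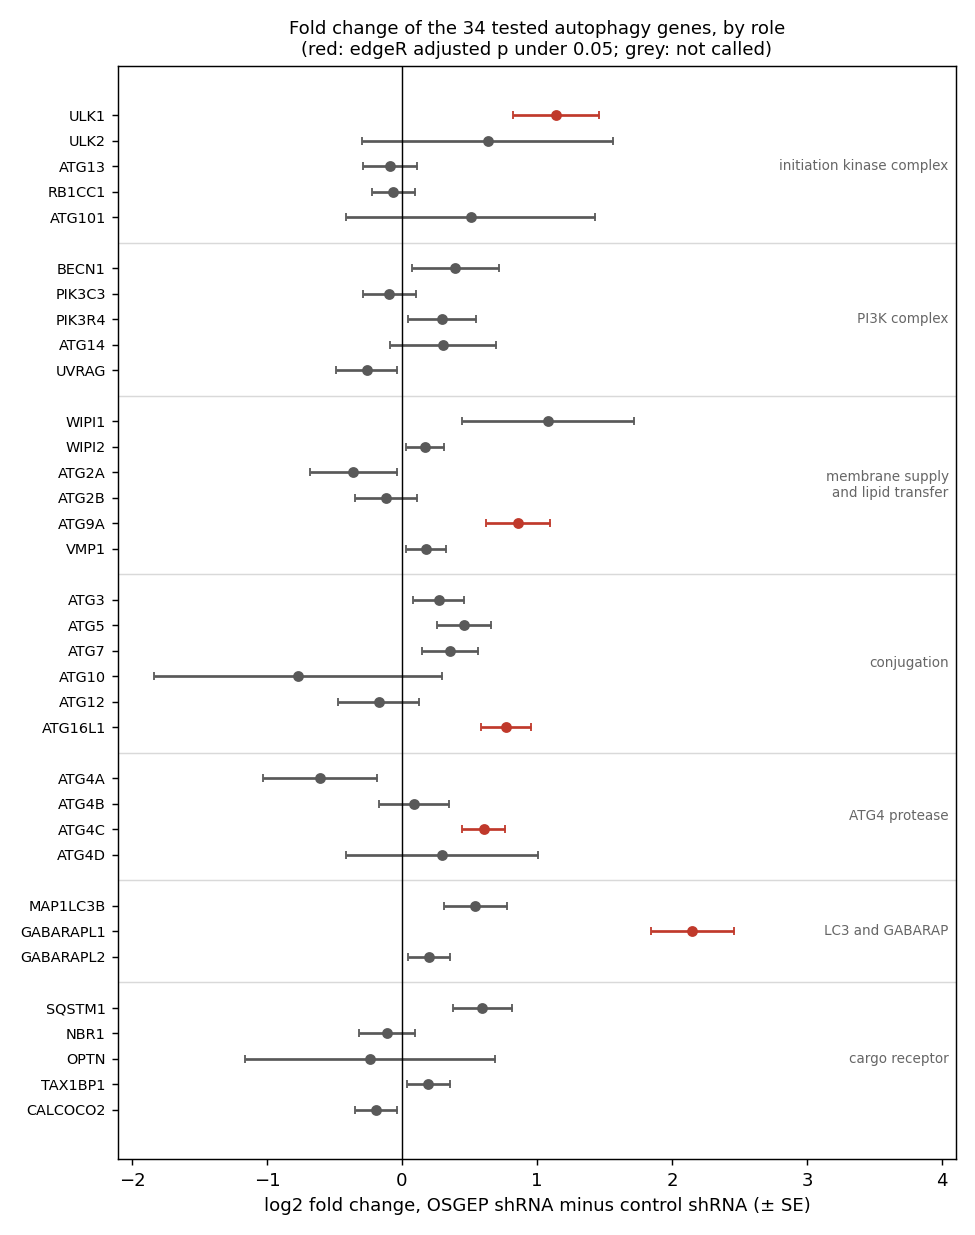
The horizontal axis gives the log2 fold change of each of the 34 tested autophagy genes (OSGEP shRNA minus control shRNA, bars ± SE), in rows grouped by role. The 5 called genes (red) lie between 0.60 and 2.15, and the widest bars belong to genes of few reads such as ATG10 and ULK2.

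In the initiation complex, ULK1 rose and its partners were not called. ULK1, the kinase that AMPK and mTORC1 phosphorylate to start or hold back autophagy (chr12:131894651-131923167, plus strand, GRCh38), was 7.83, 8.69 and 7.51 CPM in control libraries 1, 2 and 3. It was 19.5, 14.98 and 18.6 CPM in knockdown libraries 1, 2 and 3. The groups did not overlap, and the mean went from 8.01 ± 0.613 to 17.7 ± 2.40 CPM (SD, n = 3 each), a 2.21-fold rise with a log2 fold change of 1.14 (SE 0.32, edgeR adjusted p = 0.0304). The call was kept without knockdown 2 (1.26) and lost without knockdown 1 (1.06), knockdown 3 (1.12), control 1 (1.12), control 2 (1.20) or control 3 (1.09), so its size was steady while its call was near the threshold.

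The other 4 genes of that complex gave no call. ATG13, the adaptor that binds ULK1, stood at 40.5 ± 7.18 CPM in control cells and 38.1 ± 2.90 in knockdown cells. RB1CC1, which encodes the scaffold FIP200, was the most abundant transcript of the complex per length and stood at 72.6 ± 7.01 and 69.5 ± 9.15 CPM. ULK2, the paralogue of ULK1, was scarce. It had 2.16, 3.17 and 1.23 CPM in the controls and 5.53, 0.462 and 4.27 CPM in the knockdown, with knockdown 2 the lowest of all 6 libraries (log2 fold change 0.63, SE 0.93). ATG101, which stabilises ATG13, ranged from 0.835 to 4.72 CPM over the 6 libraries, with both extremes in the knockdown. Per kilobase of exon, ULK1 made up 83.1% ± 5.40 of the summed ULK1 and ULK2 level in the control and 88.2% ± 8.32 in the knockdown.

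None of the 5 genes of the PI3-kinase complexes was called by edgeR, DESeq2 or limma-voom, and 0 passed an unadjusted edgeR p of 0.05. Their log2 fold changes ran from -0.26 to 0.39. The lipid kinase PIK3C3 (VPS34) stood at 49.9 ± 5.15 CPM in control cells and 46.7 ± 9.69 in knockdown cells, and its regulatory subunit PIK3R4 (VPS15) at 24.3 ± 5.40 and 29.9 ± 5.58. BECN1, the shared scaffold, went from 17.4 ± 7.15 to 22.8 ± 5.23 CPM with overlapping groups. The subunits that direct the kinase to different membranes differed in sign without a call: ATG14, of the autophagosome-forming complex, had 0.30 (SE 0.39) and UVRAG, of the endosomal complex, had -0.26 (SE 0.23). BECN1 shares 300 exonic bases with PSME3 on the other strand, which had 14290 counts in all libraries together against 1138 for BECN1, and the strand setting of the counting is not known.

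Among the 6 genes of membrane supply, ATG9A rose. ATG9A, the multispanning scramblase of the vesicles that seed the autophagosome (chr2:219219380-219229717, minus strand), was 33.0, 37.4 and 26.7 CPM in control libraries 1, 2 and 3 and 80.7, 53.8 and 41.7 CPM in knockdown libraries 1, 2 and 3. The knockdown libraries all lay above the controls but spread almost 2-fold among themselves, with knockdown 1 the highest. The mean went from 32.4 ± 5.39 to 58.7 ± 19.9 CPM (SD, n = 3 each), a log2 fold change of 0.86 (SE 0.24, edgeR adjusted p = 0.0271). Knockdown 1 carried much of this size: without it the change was 0.56 and the call was lost. The call was also lost without control 1 (0.87), control 2 (0.97) or control 3 (0.74), and kept without knockdown 2 or knockdown 3.

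WIPI1 had the largest fold change of the autophagy genes without a call. It encodes a protein that binds phosphatidylinositol 3-phosphate, and it was 2.37, 2.15 and 5.66 CPM in the controls and 2.504, 9.62 and 9.37 CPM in the knockdown. Knockdown 1 lay among the controls, so the groups overlapped (log2 fold change 1.08, SE 0.64, with an edgeR adjusted p of 0.356). Without knockdown 1 the change was 1.49 and without control 3 it was 1.66, neither of them called. Its paralogue WIPI2, which recruits ATG16L1, supplied 90.6% ± 4.50 of the summed level per kilobase of both genes in control cells and 83.8% ± 8.46 in knockdown cells, and stood at 84.5 ± 7.66 and 94.9 ± 5.28 CPM. The lipid transfer genes ATG2A and ATG2B had log2 fold changes of -0.36 (SE 0.32) and -0.12 (SE 0.23). Of their summed level per kilobase, ATG2A made up 50.8% ± 1.77 in control cells and 45.4% ± 7.45 in knockdown cells. The scramblase VMP1, which acts in the endoplasmic reticulum, was 75.1, 75.2 and 72.5 CPM in the controls and 85.5, 74.2 and 92.7 CPM in the knockdown. Knockdown 2 lay within the range of the controls, and VMP1 was not called (0.18, SE 0.15).

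Of the 6 conjugation genes, ATG16L1 rose. ATG16L1 directs the ATG12-ATG5 conjugate to the growing membrane (chr2:233210051-233295674, plus strand). It was 33.7, 36.2 and 29.8 CPM in control libraries 1, 2 and 3 and 49.98, 64.8 and 55.1 CPM in knockdown libraries 1, 2 and 3. The groups were well apart, with means of 33.2 ± 3.24 and 56.6 ± 7.53 CPM (SD, n = 3 each) and a log2 fold change of 0.77 (SE 0.19, edgeR adjusted p = 0.0133). The call was lost without knockdown 2 (0.67), control 1 (0.77) or control 3 (0.69). Its paralogue ATG16L2, from the list of other core factors, had a change of the other sign and was not called (-0.82, SE 0.34, edgeR adjusted p = 0.150). ATG16L2 was 31.7, 27.8 and 31.75 CPM in the controls and 10.2, 29.2 and 12.1 CPM in the knockdown.

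The rest of the conjugation machinery gave no call, and its members differed in sign. ATG7, the E1-like enzyme, was 31.2, 29.8 and 27.7 CPM in the controls and 38.2, 42.2 and 33.0 CPM in the knockdown, so its groups did not overlap although it was not called (log2 fold change 0.35, SE 0.21, edgeR adjusted p = 0.344). It shares 1596 exonic bases with VGLL4 on the other strand, which had 474 counts against 1919 for ATG7. ATG5 was 50.4, 59.9 and 41.2 CPM in the controls and 69.9, 53.8 and 85.2 CPM in the knockdown, and its groups overlapped (0.46, SE 0.20, edgeR adjusted p = 0.171). ATG3, the E2-like enzyme for LC3, was 72.5, 109.8 and 72.7 CPM in the controls and 89.9, 91.7 and 126.8 CPM in the knockdown. Control 2 exceeded both lower knockdown libraries. ATG12, the ubiquitin-like partner of ATG5, had a log2 fold change of -0.17 (SE 0.30), and its pseudogene ATG12P1 held 283 counts against 1243 for ATG12. ATG12 shares 378 exonic bases with AP3S1 on the other strand, which had 1629 counts. ATG10, the E2-like enzyme for ATG12, had 2.99, 1.84 and 1.35 CPM in the controls and 0.313, 2.22 and 1.07 CPM in the knockdown (-0.77, SE 1.07). ATG10 shares 374 exonic bases with RPS23 on the other strand, which had 44979 counts against 94 for ATG10.

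Of the 4 ATG4 proteases, which trim LC3 and GABARAP precursors and release them from lipid, ATG4C rose. ATG4C (chr1:62784135-62865513, plus strand) was 49.3, 44.9 and 43.7 CPM in control libraries 1, 2 and 3 and 64.4, 72.6 and 72.7 CPM in knockdown libraries 1, 2 and 3. The spread within each group was small, with means of 45.9 ± 2.93 and 69.9 ± 4.77 CPM (SD, n = 3 each) and a log2 fold change of 0.60 (SE 0.16, edgeR adjusted p = 0.0236). It kept its call without knockdown 1 and lost it without knockdown 2 (0.59), knockdown 3 (0.59), control 1 (0.65), control 2 (0.58) or control 3 (0.57). ATG4C was also the most abundant of the family per kilobase, with 59.4% ± 2.18 of the summed level in the control and 71.2% ± 5.69 in the knockdown. The controls held 61.5%, 59.5% and 57.1% and the knockdown libraries 72.6%, 65.0% and 76.1%, without overlap. ATG4A was 8.66, 15.3 and 14.2 CPM in the controls and 10.7, 10.17 and 4.03 CPM in the knockdown, with control 1 below both higher knockdown libraries (-0.61, SE 0.42). ATG4B, the protease with the broadest activity, was 26.9 ± 1.56 CPM in control cells and 28.6 ± 10.1 in knockdown cells, and ATG4D ranged from 1.46 to 6.93 CPM. ATG4D shares 341 exonic bases with KRI1 on the other strand, which had 2715 counts against 247 for ATG4D. ATG4B shares 237 exonic bases with THAP4 on the other strand, which had 1847 counts against 1585 for ATG4B.

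GABARAPL1 had the largest change of all the autophagy genes. It encodes a GABARAP-family protein that is joined to autophagosomal lipid (chr12:10212458-10223130, plus strand). It was 10.2, 4.91 and 8.37 CPM in control libraries 1, 2 and 3 and 41.2, 27.6 and 35.6 CPM in knockdown libraries 1, 2 and 3. The lowest knockdown library was above 2 times the highest control. The means were 7.83 ± 2.69 and 34.8 ± 6.82 CPM (SD, n = 3 each), a 4.44-fold rise with a log2 fold change of 2.15 (SE 0.31, edgeR adjusted p = 0.000213). Of the 5 called genes it alone kept its call with every library left out, at 1.90 to 2.39.

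The relatives of GABARAPL1 were not called. GABARAPL2, also named GATE-16, was 97.8, 96.4 and 105.1 CPM in the controls and 92.3, 139.1 and 112.1 CPM in the knockdown, with knockdown 1 below all controls (log2 fold change 0.20, SE 0.16). MAP1LC3B, the LC3 isoform used most often as an autophagosome marker, was 25.6, 48.4 and 38.6 CPM in the controls and 48.6, 46.7 and 68.9 CPM in the knockdown. Control 2 lay between the knockdown libraries, and the change of 0.54 (SE 0.24) had an edgeR adjusted p of 0.174. The near-identical gene MAP1LC3B2 held 441 counts in all libraries against 2587 for MAP1LC3B and had 0.46 (SE 0.44), not called, and reads may be split between the pair. MAP1LC3A was not tested, with 2 libraries at 1 read and the other 4 at 0.

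GABARAP was not tested either. It had 12, 5 and 1 reads in the controls and 5, 78 and 8 in the knockdown, so 78 of its 91 knockdown reads came from knockdown 2. In GENCODE 29, 691 of its 2266 exonic bases also belong to ENSG00000262526, a gene on the same strand with 0 counts. How reads on shared bases were counted is not given in the sources used here, and the level of GABARAP is therefore uncertain.

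The family's make-up shifted with GABARAPL1. Per kilobase of exon, GABARAPL1 was 6.23%, 2.84% and 4.65% of the summed LC3 and GABARAP level in control libraries 1, 2 and 3 and 20.2%, 10.5% and 14.7% in knockdown libraries 1, 2 and 3. The share of GABARAPL2, the most abundant, was 78.0% ± 2.76 in control cells and 64.8% ± 5.35 in knockdown cells, and that of MAP1LC3B was 16.7% ± 4.74 and 18.0% ± 4.20. The summed level was 40.1, 42.4 and 44.0 CPM per kilobase in the controls and 49.9, 64.6 and 59.0 in the knockdown, without overlap. These shares are descriptions and were not tested, and they hold only as far as the count of GABARAP does.

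**Figure D2:**
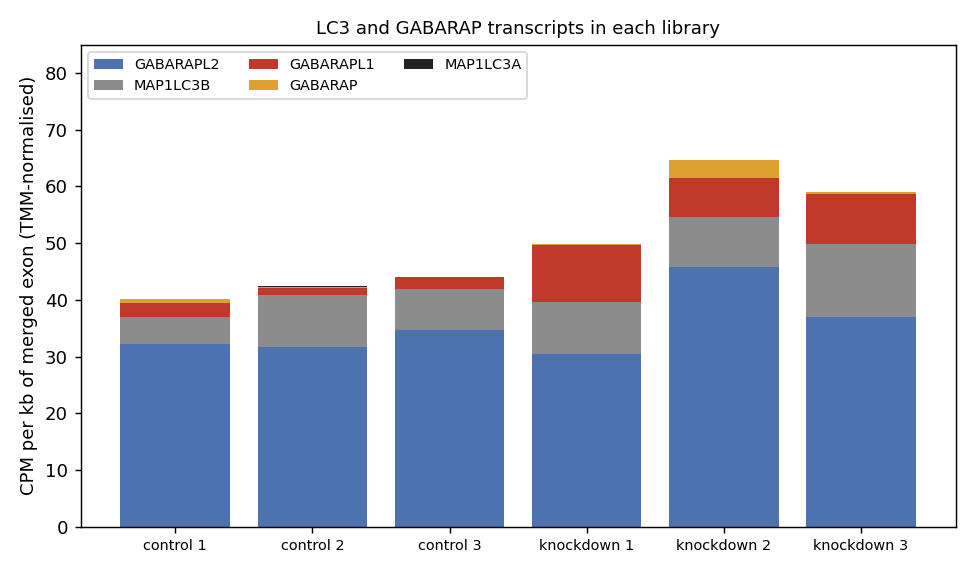
Stacked bars give the TMM-normalised CPM per kilobase of merged exon of the 5 LC3 and GABARAP genes in each library. GABARAPL2 is the largest segment in every library, and the GABARAPL1 segment is 10.5% to 20.2% of the bar in the knockdown against 2.84% to 6.23% in the control. These shares hold only as far as the count of GABARAP does.

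The sequences just upstream of the start sites of the pair that differed most in response within this family, GABARAPL1 (called) and GABARAPL2 (not called), are shown for comparison. They are the 250 bases before the RefSeq start on GRCh38.p14, chr12:10212627-10212876 and chr16:75566129-75566378, both on the plus strand, 5′ to 3′. Capitals mark a match to any of the 6 motifs searched.
GABARAPL1: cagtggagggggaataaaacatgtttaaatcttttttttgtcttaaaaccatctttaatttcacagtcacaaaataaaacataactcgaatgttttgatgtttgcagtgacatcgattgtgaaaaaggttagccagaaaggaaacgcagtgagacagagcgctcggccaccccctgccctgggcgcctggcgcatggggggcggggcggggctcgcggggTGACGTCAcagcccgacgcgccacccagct
GABARAPL2: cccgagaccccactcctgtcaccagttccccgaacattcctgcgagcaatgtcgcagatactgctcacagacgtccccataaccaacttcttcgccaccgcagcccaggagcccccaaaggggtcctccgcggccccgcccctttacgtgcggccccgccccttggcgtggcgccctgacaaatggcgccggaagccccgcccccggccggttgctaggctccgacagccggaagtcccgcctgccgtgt
The GABARAPL1 sequence holds TGACGTCA, the palindrome bound by CREB and ATF family factors, starting 30 bases before the start site, and the GABARAPL2 sequence holds none of the 6. This motif was added after the sequence had been read. It occurred in 1 of the 39 windows of the autophagy genes and in 1.85% of the 35116 windows of all genes.

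The other 5 motifs were searched on both strands in the same windows, which run from 250 bases before to 50 bases after the start. Windows were held for 32 of the 36 genes, all but RB1CC1, UVRAG, ATG4D and MAP1LC3A. The E-box core CACGTG, part of the CLEAR element of the TFEB family, was in 2 of 39 windows (ATG3 and ATG14), or 5.13%, beside 7.26% of all windows. The full palindromic CLEAR element, which contains that core, was in 0 of 39 beside 0.353%. The C/EBP-ATF response element TGATGNAA was in 0 of 39 beside 3.62%. The antioxidant response element core TGACNNNGC was in 3 (ATG101, CALCOCO2 and MAP1LC3B), or 7.69%, beside 13.3%, and the FOXO element TGTTTAC was in 1 (CALCOCO2), or 2.56%, beside 3.42%. None of the 5 was in the windows of the 5 called genes. Absence of these letters from a short window says nothing about binding elsewhere.

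The 5 cargo receptors were not called, and SQSTM1 came closest. SQSTM1, which encodes p62, was 76.4, 58.4 and 56.2 CPM in control libraries 1, 2 and 3 and 63.5, 131.5 and 93.3 CPM in knockdown libraries 1, 2 and 3. Knockdown 1 lay below control 1, so the groups overlapped. The means were 63.7 ± 11.04 and 96.1 ± 34.05 CPM (SD, n = 3 each), a log2 fold change of 0.59 (SE 0.22, edgeR adjusted p = 0.104). Without knockdown 1 SQSTM1 was called higher, at 0.82 (edgeR adjusted p = 0.00675), and without knockdown 2 the change was 0.31, not called. It was also called, at 0.59, when all genes with 1 read or more were tested. SQSTM1 shares 105 exonic bases with MGAT4B on the other strand, which had 4417 counts against 4587 for SQSTM1. It also shares 1582 exonic bases with MRNIP on that strand, which had 162 counts. Further members share exonic bases with genes not named here.

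None of the other receptors was called. NBR1, the relative of p62, stood at 44.1 ± 7.60 CPM in control cells and 40.9 ± 7.66 in knockdown cells. TAX1BP1 and CALCOCO2 (NDP52), which link bacteria and damaged mitochondria to the autophagosome, had log2 fold changes of 0.20 (SE 0.16) and -0.19 (SE 0.16). OPTN, the optineurin gene, had 2.37, 1.64 and 4.68 CPM in the controls and 0.417, 4.07 and 2.85 CPM in the knockdown (-0.24, SE 0.93). By edgeR, 0 of the 5 were called and 1 had an unadjusted p under 0.05, and DESeq2 and limma-voom called 0.

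**Figure D3:**
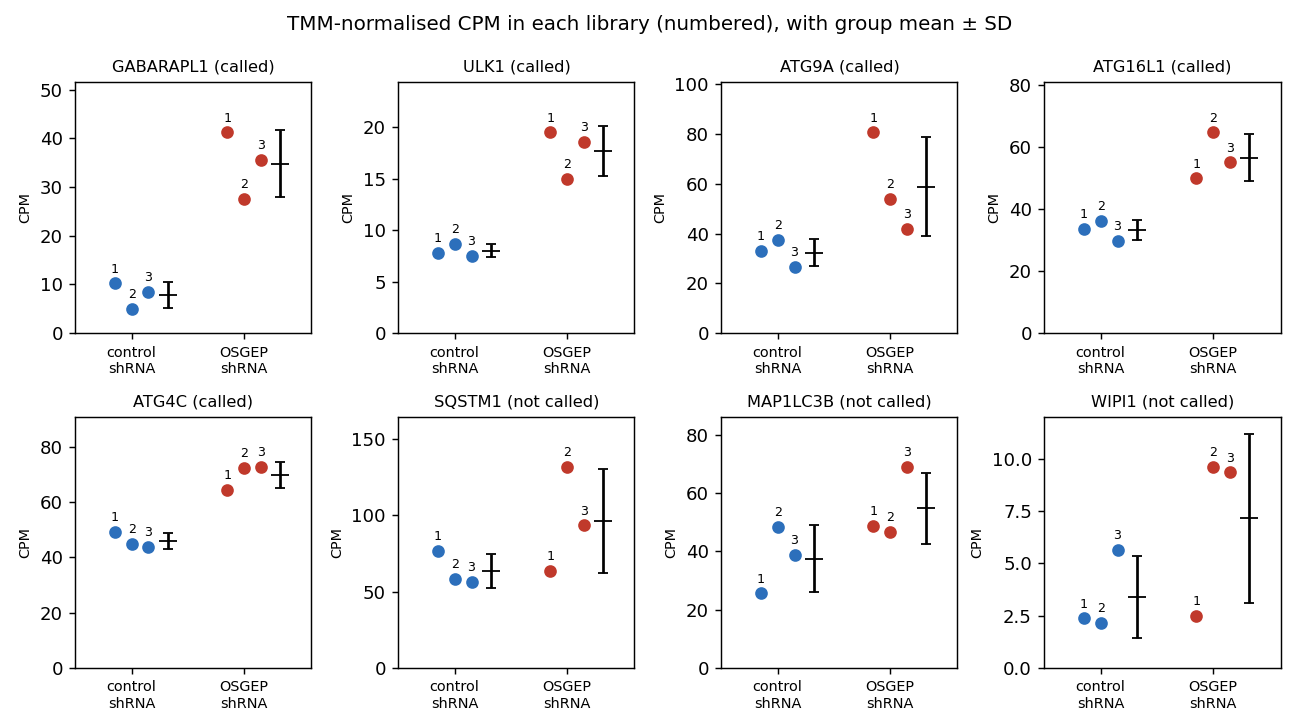
Each panel gives the TMM-normalised CPM of a gene in the 3 control (blue) and 3 knockdown (red) libraries, numbered by replicate, with the group mean ± SD in black. In the 5 called genes every red point lies above every blue point, and in SQSTM1, MAP1LC3B and WIPI1 the groups overlap.

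Levels among the 36 genes can be compared only per length, here as CPM per kilobase of merged GENCODE exon averaged over the 6 libraries. Merged length takes in every annotated exon, used in these cells or not, so these levels and the family shares above are approximate. GABARAPL2 was highest at 35.3, followed by ATG4C at 18.6, ATG3 at 15.4, VMP1 at 11.4 and ATG5 at 10.6. The place of GABARAP in this order is uncertain, since its count is. GABARAPL1 stood at 1.92 in the control and 8.52 in the knockdown, beside 7.06 and 10.3 for MAP1LC3B, so it lay well below MAP1LC3B in the control and closer to it in the knockdown. ULK1 was among the scarcer genes, at 1.05 and 2.33, and of the tested genes WIPI1, ATG101, OPTN, ATG10 and ULK2 were lower still, at 1.55, 0.72, 0.52, 0.30 and 0.28 over the 6 libraries. ULK2, ATG101, ATG4D, ATG10 and OPTN were below 5 CPM in both groups, and with standard errors of 0.71 to 1.07 on the log2 scale a change of 2-fold in them would not have been told from none.

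Other genes of the pathway were taken from 5 lists, chosen with earlier results of these data known, so their counts are descriptive. Their counts are to be read against all genes tested, of which 5.19% were called higher and 5.56% lower, 11% and 11.9% lay higher and lower at an unadjusted p under 0.05, and 13.3% and 15.6% had groups that did not overlap. Groups did not overlap in 3 further core factors with the knockdown higher and 2 with it lower, and in 2 and 2 fusion genes. The same held for 5 and 8 receptors and adaptors, 7 and 0 upstream kinases and sensors, and 5 and 1 transcription factors and cofactors. Of 19 tested further core factors, 2 rose and 0 fell (edgeR; 3 and 0 with DESeq2, 2 and 0 with limma-voom; 3 and 2 at an unadjusted p under 0.05), with a median log2 fold change of 0.20. The GTPase RAB1A, which serves vesicle traffic from the endoplasmic reticulum, rose from 147 ± 2.45 to 256 ± 31.9 CPM (0.81, SE 0.12). WDR45, a WIPI relative, rose from 15.9 ± 2.64 to 28.3 ± 2.36 CPM (0.83, SE 0.25), a call kept only without knockdown 1 among the 6 fits that left out 1 library. Of 18 genes of fusion with the lysosome, 1 fell and 0 rose, and DESeq2 and limma-voom gave the same counts. At an unadjusted edgeR p under 0.05, 1 lay higher and 1 lower. The gene that fell was the SNARE gene VAMP8, at 217 ± 22.0 CPM in control cells and 158 ± 19.1 in knockdown cells (-0.46, SE 0.13). VAMP8 lost its call without knockdown 3 (-0.37), control 1 (-0.38), control 2 (-0.49) or control 3 (-0.52), and with scaling by library size alone (-0.39).

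Of 22 tested receptors and adaptors of selective autophagy beyond the 5 above, 2 rose and 1 fell by edgeR. Both DESeq2 and limma-voom gave 2 and 3, and 5 and 4 lay higher and lower at an unadjusted edgeR p under 0.05. CCPG1, a receptor for autophagy of the endoplasmic reticulum, was 4.64, 9.51 and 2.09 CPM in the controls and 20.1, 21.8 and 21.6 CPM in the knockdown (a change of 1.96 on the log2 scale, SE 0.44, edgeR adjusted p = 0.00739). Its groups were far apart, with the spread almost all in the controls, and the change was 2.63 without control 2 and 1.58 without control 3. BNIP3, a mitophagy receptor, was 72.7, 68.9 and 83.9 CPM in the controls and 25.2, 16.3 and 21.1 CPM in the knockdown, a fall with the groups far apart (-1.85, SE 0.20, edgeR adjusted p = 1.32e-05). Both calls held with every library left out. The ubiquitin-binding adaptor TOLLIP rose from 28.4 ± 3.59 to 47.4 ± 7.73 CPM (0.74, SE 0.21), a call kept only without knockdown 3 among the 6 fits that left out 1 library.

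Upstream of the ULK complex, 2 of 21 tested kinases and sensors rose and 0 fell (edgeR; the same counts with DESeq2 and limma-voom; 3 and 0 at an unadjusted p under 0.05). Both were sestrins, which restrain mTORC1, while the sestrin SESN3 was not called (log2 fold change 0.13, SE 0.49). SESN2 was 4.33, 3.48 and 4.80 CPM in the controls and 18.4, 14.7 and 15.5 CPM in the knockdown (log2 fold change 1.95, SE 0.37, edgeR adjusted p = 0.00242). SESN1 rose from 26.7 ± 0.876 to 43.3 ± 5.92 CPM (0.70, SE 0.20), and lost its call without knockdown 3 (0.59), control 1 (0.71), control 2 (0.67) or control 3 (0.70).

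Of 14 tested transcription factors and cofactors reported to regulate autophagy genes, 3 rose and 0 fell by edgeR. DESeq2 and limma-voom gave 3 and 0 as well, and 5 and 1 lay higher and lower at an unadjusted edgeR p under 0.05. TFEB, the main activator of lysosomal and autophagy genes, was 29.3, 36.6 and 28.8 CPM in the controls and 58.9, 49.7 and 57.2 CPM in the knockdown (log2 fold change 0.81, SE 0.19, edgeR adjusted p = 0.0106). TFEB lost its call without control 1 (0.75) or control 3 (0.74). ATF4, the effector of the integrated stress response, rose from 204 ± 2.98 to 410 ± 23.4 CPM (1.01, SE 0.10). PPARGC1A, a coactivator of mitochondrial genes, had 503 counts in the knockdown and 1 in the control. Its edgeR log2 fold change was 8.46 (SE 0.73), or 351-fold. The ratio of the pooled counts, scaled for library size, was 481 (exact 95% interval of the counts 86 to 19048, counting error only). MITF and TFE3, relatives of TFEB, and FOXO3 were not called, at 0.56 (SE 0.28), 0.35 (SE 0.31) and -0.41 (SE 0.17). These 3 were named for their kinship or background and not by the naming rule.

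How far the 5 calls depended on single libraries was examined by leaving out each in turn. The count of autophagy genes called higher was 5 with all libraries, 4 without knockdown 1, 3 without knockdown 2, 3 without knockdown 3, 1 without control 1, 2 without control 2 and 1 without control 3. The share of all genes called higher in those 6 fits was 4.85%, 4.8%, 3.23%, 3.22%, 3.11% and 2.96%. The count of autophagy genes called lower was 0 in each, where 6%, 4.47%, 3.06%, 3.56%, 2.81% and 2.82% of all genes were called lower. The count called higher was also 5 with RLE factors (5.34% of all genes), library size alone (6.13%) and a mean CPM filter of 5 (7.23%) and was 6 with no filter beyond 1 read (3.08%). GABARAPL1 was in every one of these sets, whereas SQSTM1 entered without knockdown 1 and with no filter beyond 1 read.

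**Figure D4:**
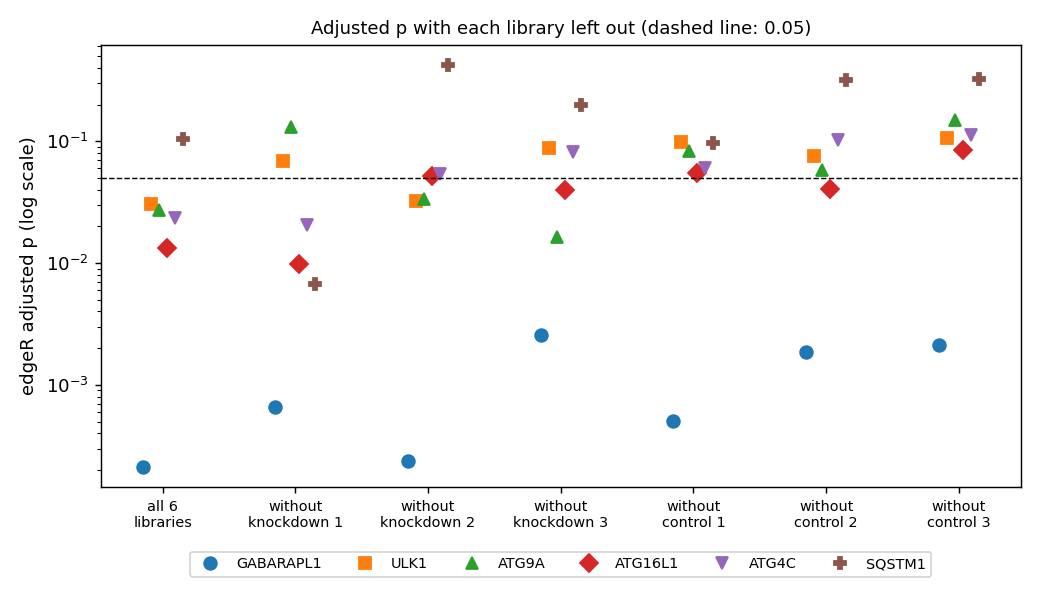
The vertical axis (log scale) gives the edgeR adjusted p of 6 autophagy genes with all 6 libraries and with each library left out, and the dashed line marks 0.05. GABARAPL1 stays between 0.000213 and 0.00255, and the other called genes cross the line in at least 3 of the 6 fits.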

How the data were processed

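The authors deposited raw counts, whole numbers of reads for each Ensembl gene, in a table of its own for every library. Per the submitters' processing notes, HISAT2 2.1.0 and featureCounts 1.6.3 were used and the builds GRCh38 and GRCm38 are listed with no role. Per the labels' protocols, total RNA went into a stranded mRNA kit read as paired ends of 150 bp. Of the annotation release, the strand setting and the rule for multiply aligned or overlapping reads, nothing is stated.

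Symbols came from a table of current names and from GENCODE 29 on GRCh38, whose merged exons also gave lengths, and 263 of 58302 identifiers matched neither. Upstream sequences came from RefSeq on GRCh38.p14. Groups and replicate numbers came from the sample titles. Pairs of libraries within a group differed well beyond counting noise (chi-square over degrees of freedom 10.5 to 25.6).

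Testing used edgeR 4.0.16 (R 4.3.3), by quasi-likelihood (group as the only term, TMM, filterByExpr with a minimum count of 10 and total of 15, two-sided, Benjamini-Hochberg over 14018 genes, threshold 0.05). This left out 44284 genes. Standard errors were derived from fold changes and F values. The steps were also run on simulated counts, and the outcome is not given here. Alternatives were RLE factors, library size alone, other filters, the replicate block, each library left out, DESeq2 1.42.0 and limma-voom (limma 3.58.1).

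The members and lists were chosen with earlier results of these data known. By rule, values per library are given for called members, the 6 uncalled ones with the largest change and the 5 highest per length, and up to 4 called genes of each other list with a mean of at least 5 CPM. Some further members, transcription factors and other listed genes are given beyond that rule.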

Additional observations from a re-analysis of the deposited data

How the results depend on the processing

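GABARAPL1 was called higher under every alternative run. All 5 calls held with RLE factors, library size alone, a mean CPM filter of 5, DESeq2 and limma-voom, and testing all genes with 1 read or more added SQSTM1 (0.59) for 6. In that last setting 1 called gene of the other lists lost its call. With the replicate block 3 autophagy genes were called, without ULK1 (1.14) and ATG4C (0.60), and 519 of all genes were called higher and 553 lower, beside 727 and 780. WDR45 (0.84), TOLLIP (0.74), SESN1 (0.69) and VAMP8 (-0.46) were not called with the block either. Same-numbered libraries did not deviate together (correlations -0.12, -0.06 and -0.04), and no library correlated best with the one of its own number. The titles give the numbers no further meaning. Leaving out 1 library gave 1 to 4 autophagy genes called higher. Over all genes it gave 445 to 726 called higher, beside 727, and 423 to 898 called lower, beside 780. Library size alone gave 859 higher and 612 lower of all genes, with the median log2 fold change moving from 0.01 to 0.08.

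No gene with a call changed sign. Uncalled genes that did were ULK2 with limma-voom (-0.059) and RB1CC1 with library size alone (0.0022). With 1 library left out, ranges that cross 0 were -0.18 to 0.064 for ATG13, -0.15 to 0.052 for RB1CC1, -0.15 to 0.93 for ATG101, -0.24 to 0.071 for PIK3C3, -0.24 to 0.054 for ATG2B, -0.23 to 0.25 for ATG4B, -0.081 to 0.88 for ATG4D, -0.40 to 0.22 for ATG12, -0.25 to 0.018 for NBR1 and -0.83 to 0.28 for OPTN. The cause was not tested. Depth was not tested as a source of the wide errors of the 5 tested members below 5 CPM.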

Other observations

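The scarce autophagy transcripts ATG101, ATG4D and ULK2 had both their lowest and highest values in libraries of the knockdown. For ATG10, OPTN and GABARAP the extremes lay in different groups. ATG10 was highest in control 1 (2.99 CPM), OPTN was highest in control 3 (4.68 CPM) and GABARAP was lowest in control 3 (0.123 CPM). Knockdown 1 held the lowest value of all 6 libraries for ATG101 (0.835 CPM), ATG4D (1.46 CPM), ATG10 (0.313 CPM) and OPTN (0.417 CPM). Knockdown 2 held the highest value for ATG101 (4.72 CPM), ATG4D (6.93 CPM) and GABARAP (7.21 CPM, beside at most 1.24 CPM in any other library). For ULK2 the order was turned, with knockdown 1 highest (5.53 CPM) and knockdown 2 lowest (0.462 CPM). Among well-counted genes, knockdown 2 was also the highest library for SQSTM1 (131.5 CPM), GABARAPL2 (139.1 CPM) and ATG4B (40.2 CPM), and knockdown 1 for ATG9A (80.7 CPM) and GABARAPL1 (41.2 CPM).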
